A study of Mus musculus with 6 samples.

Results

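The apolipoprotein gene loci were 3 windows of the mouse genome (mm9) that together span 400 kb and were set around 8 apolipoprotein genes. The windows were chr9:45990000-46130000 for the cluster of Apoa1, Apoc3, Apoa4 and Apoa5, chr12:7930000-8080000 for Apob, and chr7:20240000-20350000 for the cluster of Apoe, Apoc1 and Apoc2. A peak belonged to a locus if its midpoint lay in the window. This gave 131 of the 98191 peaks in the series: 68 of 51992 peaks with the receptor and no injected hormone, 63 of 46092 with the receptor and hormone, and 0 of 107 in the control without the receptor. The windows were set around named genes, and the loci were chosen with earlier results of these data known.

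The peaks come from ChIP-seq of thyroid hormone receptor β1 (TRβ1) in liver of mice aged 9 to 10 weeks, heterozygous for BirA, a ligase that puts biotin on the tagged receptor. All groups ate a diet with propylthiouracil (PTU), which blocks thyroid hormone synthesis, for 3 weeks, and then received an adenovirus by tail vein and injections into the abdomen for 4 days. GFP PTU livers carried the virus for GFP alone and received saline, TRb PTU livers carried the virus for GFP and biotinylated TRβ1 and received saline, and TRb T3 livers carried the same receptor virus and received triiodothyronine (T3), the active hormone. Biotinylated receptor was captured on streptavidin, so the peaks describe receptor supplied by the virus and not the animals' own TRβ1. There was 1 library per condition, its number of animals is not given, and whole liver does not tell which of its cells a peak comes from. No test between conditions was therefore made, and the read depth behind the lists is unknown.

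Apolipoproteins are the protein part of the particles that carry fat and cholesterol in blood, and the liver secretes most of those studied here. TRβ1 is the main thyroid hormone receptor of hepatocytes. It binds DNA with or without hormone, usually together with a retinoid X receptor at repeats of the motif AGGTCA. Without hormone it is known to recruit corepressors, and T3 exchanges these for coactivators. Thyroid hormone is known for lowering blood cholesterol. Apoa1 encodes the main protein of high-density lipoprotein. Apoc3 encodes an inhibitor of triglyceride clearance, and Apoa5 a protein that promotes it. Apoa4 encodes a protein of intestinal and hepatic particles. Apob encodes the large structural protein of very-low-density and low-density lipoprotein. Apoe encodes the ligand by which remnant particles are taken up, Apoc2 the cofactor of lipoprotein lipase, and Apoc1 a small protein that slows particle uptake.

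In the RefSeq gene table of GRCm38, Apoa1, Apoc3, Apoa4 and Apoa5 follow one another between Sik3 and Zpr1. Apoc2, Apoc4, Apoc1 and Apoe follow one another before Tomm40, and Apob lies between Klhl29 and Ldah. No gene annotation or sequence of mm9 was used here, so a peak is assigned to a locus by its window and not to a promoter, exon or intron of a gene. One RefSeq start region per locus is shown to give the letters in which the receptor's motif was searched. Each line is the 250 bases before the start of the gene on GRCm38.p6, 5′ to 3′ on the gene's strand, and capitals mark AGGTCA. The positions are chr9:46228380-46228629 (+ strand) for Apoa1, chr12:7977427-7977676 (+ strand) for Apob and chr7:19677942-19678191 (- strand) for Apoc2. These positions are not on the scale of the mm9 peaks.
Apoa1: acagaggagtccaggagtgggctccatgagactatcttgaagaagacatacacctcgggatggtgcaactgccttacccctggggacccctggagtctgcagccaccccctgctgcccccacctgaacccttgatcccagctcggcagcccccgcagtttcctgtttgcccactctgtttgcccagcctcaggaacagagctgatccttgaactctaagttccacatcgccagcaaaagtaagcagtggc
Apob: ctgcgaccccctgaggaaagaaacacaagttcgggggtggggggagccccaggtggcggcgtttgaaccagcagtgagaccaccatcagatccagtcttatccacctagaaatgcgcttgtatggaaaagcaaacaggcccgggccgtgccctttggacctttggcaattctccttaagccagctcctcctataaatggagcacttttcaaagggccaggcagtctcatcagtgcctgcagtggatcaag
Apoc2: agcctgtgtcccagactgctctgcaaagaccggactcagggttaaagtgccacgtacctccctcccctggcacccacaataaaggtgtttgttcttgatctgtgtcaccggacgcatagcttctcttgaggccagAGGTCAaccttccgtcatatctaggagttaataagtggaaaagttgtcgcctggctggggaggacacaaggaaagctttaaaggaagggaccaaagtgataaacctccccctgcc
Of the 8 genes, 6 matched the table with 9 start regions. Apoc1 and Apoc3 were not matched. AGGTCA, searched on both strands, was present in 1 of the 9, that of Apoc2, where it begins 115 bases before the start. Over all 32851 start regions, 14.0% held it. The direct repeat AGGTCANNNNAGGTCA, which contains the same motif on each side, was present in 0 of the 9 and in 5 of the 32851 (0.0152%). A match is a description of these letters and was not tied to a peak.

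TRβ1 peaks were dense at both apolipoprotein clusters and fewer per length around Apob. The Apoa1-Apoc3-Apoa4-Apoa5 window held 30 TRb PTU and 34 TRb T3 peaks in 140 kb, or 21.4 and 24.3 per 100 kb. The Apoe-Apoc1-Apoc2 window held 29 and 22 in 110 kb, or 26.4 and 20 per 100 kb. The Apob window held 9 and 7 in 150 kb, or 6.0 and 4.67 per 100 kb. GFP PTU had 0 peaks in each window, and its nearest peaks lay 4446, 32623 and 9193 kb from the edges of the Apoa1, Apoe and Apob windows. With 107 GFP peaks in all, 0 in 400 kb does not measure the background there.

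The same count was made in windows of the same length laid end to end over chromosomes 1 to 19 and X, including stretches of the assembly with no peaks. Windows of 140 kb held a mean of 2.76 TRb PTU and 2.44 TRb T3 peaks, so the Apoa1 cluster had 10.9 and 13.9 times the mean. Of 18816 such windows, 28 had at least 30 TRb PTU peaks (0.149%) and 5 had at least 34 TRb T3 peaks (0.0266%). The Apoe cluster had 13.4 and 11.5 times the mean of 110 kb windows, and 14 (0.0585%) and 37 (0.155%) of 23940 windows held as many peaks or more. Apob was also above the mean, by less than the clusters, at 3.04 and 2.67 times the mean of 150 kb windows, with 11.9 and 14.4% of windows at its level or above. The windows of the loci were centred on genes and the others were not, so these shares are descriptions.

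**Figure D1:**
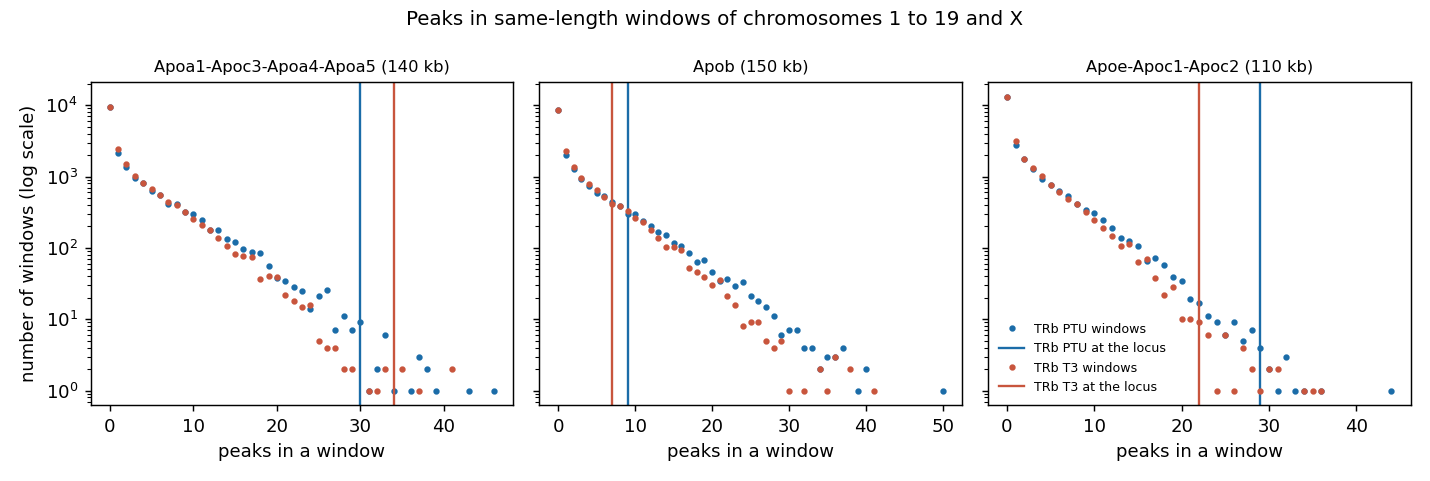
Number of TRβ1 peaks in windows of the length of each locus (x axis, peaks per window) against the number of windows with that count (y axis, log scale), for TRb PTU and TRb T3. Vertical lines mark the locus itself: 30 and 34 peaks at the Apoa1 cluster, 9 and 7 at Apob, 29 and 22 at the Apoe cluster.

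The Apoa1 cluster had 0.882 TRb PTU peaks for each TRb T3 peak, the Apoe cluster 1.32 and Apob 1.29, where the whole lists had 1.13. Among windows with at least 10 peaks in each list the ratio had a median of 1.09, with quartiles of 0.909 and 1.33 at 140 kb and of 0.909 and 1.29 at 110 kb, so both clusters lay just beyond the quartiles. A TRb PTU peak that shared at least 1 bp with a TRb T3 peak was called shared and otherwise PTU-only, and a TRb T3 peak without a TRb PTU partner was called T3-only. Over the whole lists, 46.1% of TRb PTU peaks were PTU-only and 38.7% of TRb T3 peaks were T3-only. The shared shares were accordingly 53.9 and 61.3%. At the Apoa1 cluster, 5 of 30 TRb PTU peaks were PTU-only (16.7%, exact 95% binomial interval 5.64 to 34.7%) and 7 of 34 TRb T3 peaks were T3-only (20.6%, 8.70 to 37.9%). Most peaks of this cluster were thus found with and without T3, 25 of the TRb PTU and 27 of the TRb T3 list. At the Apoe cluster, 10 of 29 TRb PTU peaks were PTU-only (34.5%, 17.9 to 54.3%) against 3 of 22 TRb T3 peaks that were T3-only (13.6%, 2.91 to 34.9%), and 19 peaks of each list were shared. Around Apob, 5 of 9 peaks were PTU-only (55.6%, 21.2 to 86.3%), 3 of 7 were T3-only (42.9%, 9.90 to 81.6%), and 4 of each list were shared. The intervals treat peaks as independent, cover counting error only, and hold neither depth nor the variation between animals.

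Read against the whole lists, the intervals of the Apoa1 cluster lay below the background in both directions, and at the Apoe cluster that of the T3-only share did. The Apob intervals and that of the Apoe PTU-only share spanned the background. Without the lower-scored peaks the shares stayed lower, but their intervals no longer excluded the background. With both lists limited to scores at or above their medians, the Apoa1 cluster had 5 of 18 PTU-only peaks (27.8%, interval 9.69 to 53.5%). Its T3-only peaks were also 5 of 18 (27.8%, 9.69 to 53.5%), and those of the Apoe cluster 3 of 14 (21.4%, 4.66 to 50.8%). The filtered lists had 46.9% PTU-only and 39.9% T3-only, above each share and within each interval. Fewer peaks remained, so the intervals were wider. In windows with many peaks the single-list shares were mostly lower than in the whole lists. Among 1007 windows of 140 kb with at least 10 peaks in each list, the PTU-only share had a median of 35.7% (quartiles 25 and 46.2%) and the T3-only share 28.6% (18.5 and 38.5%). The Apoa1 cluster, at 16.7 and 20.6%, was below the lower quartile for PTU-only peaks and between the quartiles for T3-only peaks. Among 744 windows of 110 kb the medians were 33.3% (23.1 and 42.9%) and 26.7% (16.7 and 35.7%). The Apoe cluster, at 34.5 and 13.6%, was near the median for PTU-only peaks and below the lower quartile for T3-only peaks.

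**Figure D2:**
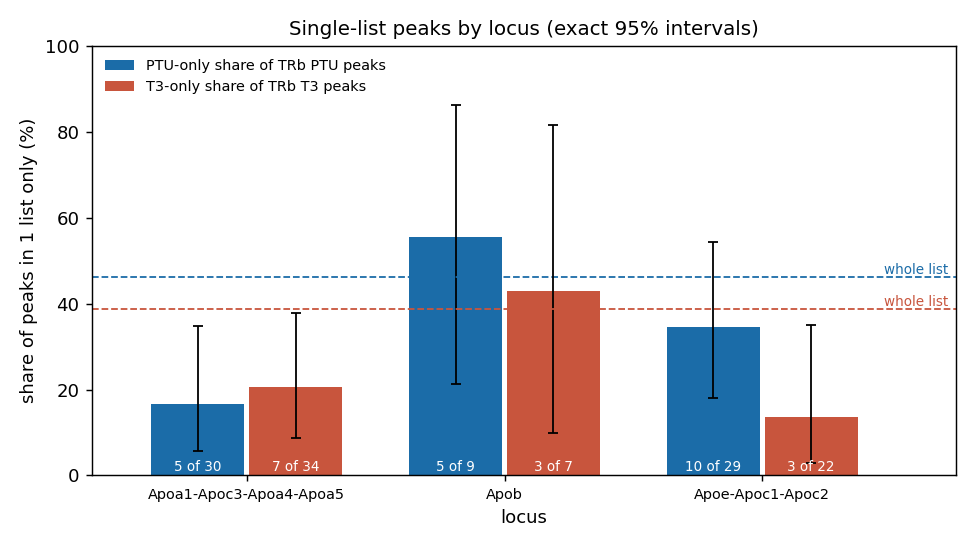
Share of peaks called in 1 list alone (y axis, %) at each locus (x axis), as PTU-only of TRb PTU peaks and T3-only of TRb T3 peaks, with exact 95% binomial intervals as error bars and the whole-list shares of 46.1 and 38.7% as dashed lines. The Apoa1 cluster has 16.7 and 20.6%, Apob 55.6 and 42.9%, and the Apoe cluster 34.5 and 13.6%.

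The length of DNA under peaks was larger in TRb PTU at each locus, as in the whole lists. TRb PTU peaks covered 9039 bp of the Apoe window and TRb T3 peaks 5015 bp, a ratio of 1.80. The ratio was 1.17 at the Apoa1 cluster (8930 and 7636 bp) and 1.28 at Apob (1781 and 1391 bp). Over the whole lists it was 1.25, from 13.1 and 10.4 Mb. Covered length depends on how many peaks were called and how wide each was. A single PTU-only peak of 1190 bp is part of the 9039 bp of the Apoe window. At the Apoe cluster the median peak width was 251 bp without and 219 bp with T3, against 210 and 193 bp in the whole lists. It was 224.5 and 200.5 bp at the Apoa1 cluster and 199 and 191 bp at Apob.

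Each peak has a score, a value that the sources used here do not define, and scores are ranked here only within a list. In TRb PTU, peaks in the top decile of the list (10.0% of all its peaks, by construction) made up 5 of 29 at the Apoe cluster, 2 of 30 at the Apoa1 cluster and 0 of 9 at Apob. In TRb T3 (also 10.0%) they made up 1 of 22, 2 of 34 and 0 of 7. All of these top-decile peaks were shared. Over the series, 5.65% of top-decile TRb PTU peaks were PTU-only and 8.70% of top-decile TRb T3 peaks were T3-only. The median score of the locus stood at the 63.3rd percentile of the TRb PTU list for the Apoa1 cluster, the 62.9th for the Apoe cluster and the 31.7th for Apob. In the TRb T3 list it stood at the 51.7th, 62.0th and 35.7th. Apob peaks thus had mostly low scores within both lists, while the median peak of each cluster lay above the middle of the list.

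**Figure D3:**
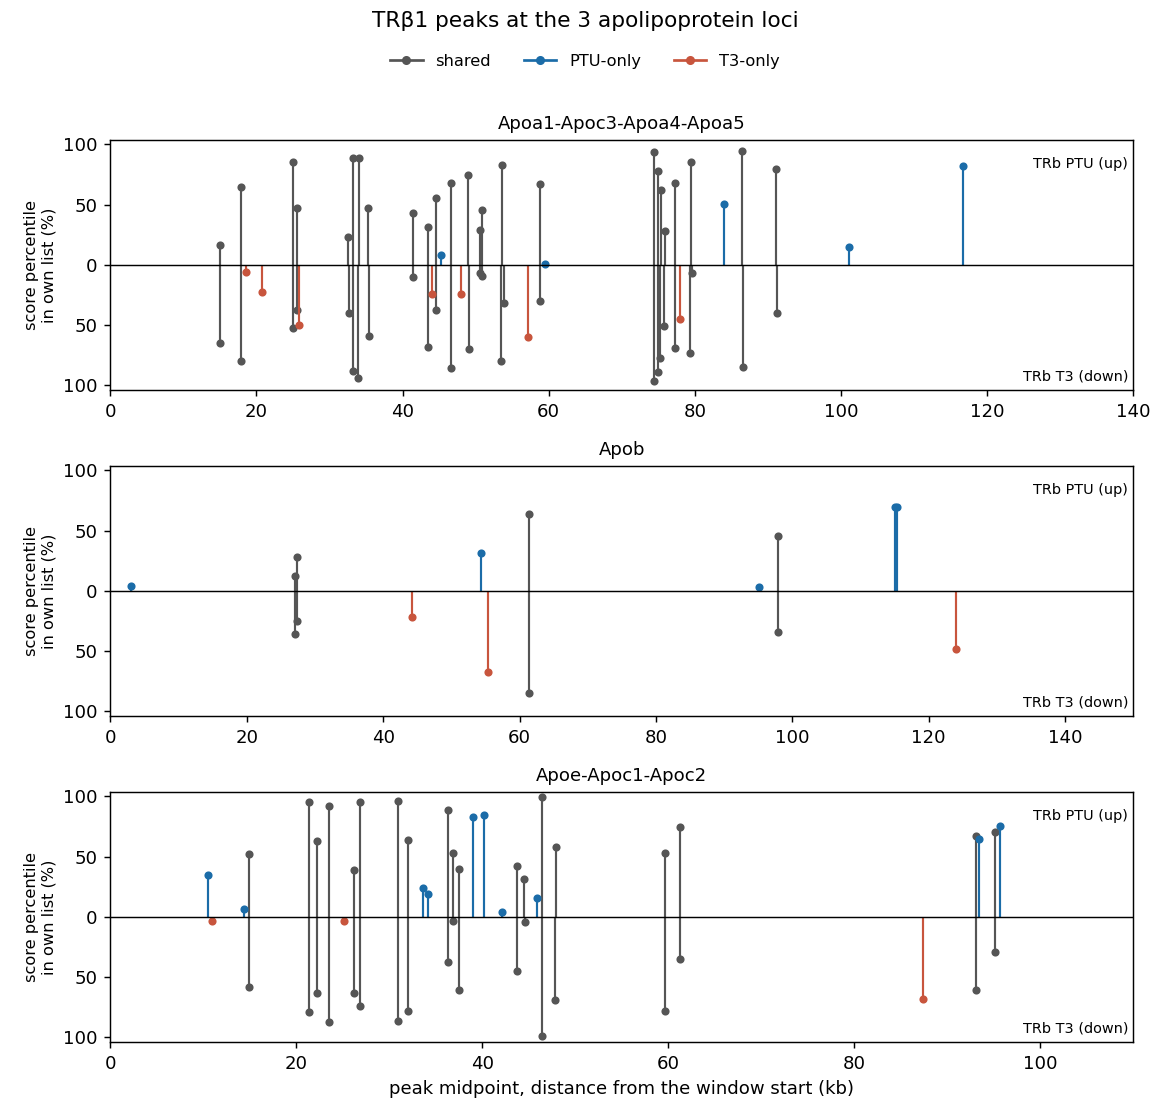
Peaks of the 3 loci by the distance of their midpoint from the window start (x axis, kb), with TRb PTU peaks drawn upward and TRb T3 peaks downward to their score percentile within their own list (y axis, %). Grey peaks are shared, blue are PTU-only and red are T3-only; the Apoe cluster has 10 blue and 3 red peaks, and the highest, at the 99.8th percentile of TRb PTU, is grey.

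At the Apoa1 cluster, which holds the gene for the main high-density lipoprotein protein, the highest-scored TRb PTU peak was chr9:46076223-46076715 (score 120.70). Next came chr9:46064113-46064736 (108.53) and chr9:46022850-46023489 (80.69). In TRb T3 the order differed. The highest was chr9:46064185-46064714 (153.09), the partner of the second TRb PTU peak. It was followed by chr9:46023660-46024178 (119.91) and chr9:46064835-46065077 (85.37). The partner of the highest TRb PTU peak, chr9:46076506-46076719, had a TRb T3 score of 68.36. This TRb T3 peak was 214 bp wide against 493 bp in TRb PTU, and the midpoints were 143.5 bp apart.

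Peaks of this cluster were grouped in runs, defined after the values were seen as peaks of either list with midpoints at most 5 kb apart. A run of 18.3 kb at chr9:46031307-46049584 held 11 TRb PTU and 13 TRb T3 peaks. A run of 17.2 kb at chr9:46064113-46081318 held 9 and 10. Shorter runs at chr9:46004845-46015861 and chr9:46022422-46025460 held 4 and 7 peaks and 4 and 4 peaks. The last of these had 0 PTU-only and 0 T3-only peaks, so all of its sites were found in both conditions. Beyond the runs, 2 isolated TRb PTU peaks lay at chr9:46091043-46091178 and chr9:46106635-46106827, to the right of the last TRb T3 peak of the window.

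The single-list peaks of the Apoa1 cluster mostly had low scores, and some lay close to a peak of the other list. Low scores are not particular to those peaks. Over the whole lists the median score was 12.62 for PTU-only peaks against 32.09 for shared ones, and 14.95 for T3-only peaks against 30.27. The highest PTU-only peak was the isolated chr9:46106635-46106827 (score 55.61), whose edge lay 25321 bp from the nearest TRb T3 peak. The next were chr9:46073952-46074107 (19.51) and chr9:46091043-46091178 (8.26). The highest T3-only peaks were chr9:46047046-46047223 (29.25), chr9:46015706-46015861 (22.02) and chr9:46067881-46068035 (19.44). Of the 7 T3-only peaks, 4 had an edge within 500 bp of a TRb PTU peak and 6 scored below the median of the TRb T3 list. Of the 5 PTU-only peaks, 1 was within 500 bp of a TRb T3 peak and 3 scored below the median of theirs. The whole-list medians of single-list peaks, 12.62 and 14.95, also lay below the list medians of 19.35 and 22.13. The share of all single-list peaks within 500 bp was not counted, so closeness is not read as a trait of this cluster.

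Some sites of this cluster were called as 1 peak in one condition and as several in the other. The TRb PTU peak chr9:46043288-46043986 met chr9:46043378-46043674 and chr9:46043771-46043986 of TRb T3. The TRb PTU peak chr9:46069274-46069771 met chr9:46069281-46069483 and chr9:46069588-46069735. The TRb PTU peak chr9:46022850-46023489 also met 2 TRb T3 peaks, 1 of which met 2 TRb PTU peaks itself. In all, 3 TRb PTU peaks and 1 TRb T3 peak of the cluster had more than 1 partner, where 0.983 and 0.529% of the whole lists did. The other 2 loci had 0 such peaks.

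Where 1 peak met 1 peak, the position of the pair in each list could be compared. There were 27010 such pairs in the series. Each list's scores were ranked again among them, so that a percentile means the same number of peaks in both. Over the series 48.9% of pairs ranked higher in TRb T3 and 51.1% in TRb PTU. A difference of at least 20 percentile points was found towards TRb T3 in 21.9% and towards TRb PTU in 22.7%. The 3 loci held 44 pairs.

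At the Apoa1 cluster, 11 of 21 pairs ranked higher in TRb T3 (52.4%, interval 29.8 to 74.3%), 6 of them by at least 20 points, and 4 ranked at least 20 points higher in TRb PTU. The largest rise towards T3 was at chr9:46004845-46005071, from percentile 7.54 in TRb PTU to 53.4 in TRb T3. The pair at chr9:46033454-46033614 went from 16.7 to 56.7 and that at chr9:46036491-46036812 from 51.0 to 79.0. The other 3 began at chr9 positions 46007814, 46065178 and 46065782 and ranked 23.9 to 24.7 points higher in TRb T3. Those last 2 belong to a group of 5 neighbouring pairs, from chr9:46064113 to chr9:46067432, that all ranked higher in TRb T3, by 6.46 to 24.7 points, a group picked after its values were seen. In the opposite direction, the pair at chr9:46080786-46081318 ranked 37.0 points higher in TRb PTU, that at chr9:46014810-46015176 34.7 points and that at chr9:46048661-46048904 29.8 points. The pair at chr9:46040733-46040980 ranked 21.3 points higher in TRb PTU. Pairs of both directions thus lay within the same cluster, and its share was close to that of the series.

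At the Apoe cluster, which holds the genes for the remnant ligand and the lipase cofactor, the highest-scored peak of both lists was the same site. It was chr7:20286232-20286664 in TRb PTU (score 315.05, place 86 of the list) and chr7:20286293-20286603 in TRb T3 (196.04, place 691), with midpoints 0 bp apart. Among the single pairs it stood at percentile 99.7 in TRb PTU and 97.6 in TRb T3. It was the highest-scored peak of all 3 loci in each list. The next TRb PTU peaks were chr7:20270646-20271158 (142.60) and chr7:20266650-20266973 (127.59). The next TRb T3 peaks were chr7:20263333-20263608 (77.02) and chr7:20270738-20271033 (74.69).

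Most peaks of this window lay in 1 run of 26.8 kb at chr7:20261224-20287978, with 20 TRb PTU and 15 TRb T3 peaks. Of these, 6 were PTU-only and 1 was T3-only, and 14 of each list were shared. Within the run, 1 TRb T3 peak ended at chr7 position 20277599 and the next began at 20283676, a stretch of 6.08 kb. This stretch held 3 PTU-only peaks. These were chr7:20278758-20279214 (score 58.01), chr7:20279630-20280819 (64.20) and chr7:20281962-20282176 (5.46). The middle peak was 1190 bp wide, the widest of the 3 loci in either list. The first and the middle stood at the 82.9th and 84.9th percentile of the TRb PTU list, and the third was near its lower end. A second stretch of 4.07 kb between TRb T3 peaks held 2 PTU-only peaks, chr7:20273552-20273714 (10.24) and chr7:20274054-20274187 (9.16). Both stretches lack TRb T3 peaks because of how they were bounded, and they were picked after their values were seen. The reverse also occurred, as a stretch of 6.79 kb between TRb PTU peaks of the Apoa1 cluster held 2 T3-only peaks. How often such stretches occur in the series was not counted.

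The highest PTU-only peaks of the Apoe window were therefore the neighbouring peaks at 64.20 and 58.01, then chr7:20335577-20335853 (41.94). Of the 10, 4 scored at or above the median of the TRb PTU list and 5 lay within 500 bp of the edge of a TRb T3 peak. The whole-list share within that distance was not counted. Of the 3 T3-only peaks, chr7:20327255-20327440 scored 37.04 and lay 5589 bp from the nearest TRb PTU edge. The others, chr7:20250880-20251082 (5.76) and chr7:20265058-20265208 (5.59), stood at percentile 3.47 and 3.04 of their list.

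The ranks of the shared peaks at the Apoe cluster were also read by how high they stood in TRb PTU, a value that is itself part of the difference. Of 19 pairs, 11 ranked higher in TRb PTU, 6 of them by at least 20 points, and 8 ranked higher in TRb T3 (42.1%, interval 20.3 to 66.5%), 4 of them by at least 20 points. All 8 pairs at or above percentile 50 in TRb PTU ranked lower in TRb T3, where 67.2% of such pairs in the series did. A pair that stands high in 1 list has more room below it than above in the other, and the pairs of the series leaned the same way. Whether the split at the Apoe cluster goes beyond this was not tested. Percentile 50 was chosen after the values were seen. Of the 11 pairs under percentile 50, 8 ranked higher in TRb T3, against 65.0% in the series. At the Apoa1 cluster the pairs at or above percentile 50 were 5 higher and 5 lower.

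The largest difference of all 44 pairs was at chr7:20276224-20276444, which stood at percentile 80.9 in TRb PTU (score 79.94) and 26.5 in TRb T3 (score 16.04). Its neighbour chr7:20276657-20277039 ranked 32.0 points higher in TRb PTU. Both lie directly to the left of the stretch that held 3 PTU-only peaks, with 1 further pair between. That pair, chr7:20277333-20277744, ranked 25.2 points higher in TRb T3, so the neighbourhood did not move in 1 direction. Pairs at chr7:20301039-20301542 and chr7:20334918-20335326 ranked 35.1 and 34.7 points higher in TRb PTU, and those at chr7:20266650-20266973 and chr7:20261224-20261495 ranked 28.1 and 21.9 points higher. Towards T3, the pair at chr7:20299571-20299725 ranked 34.2 points higher, from percentile 34.7 to 68.8. The pair at chr7:20266098-20266348 ranked 29.0 points higher in TRb T3 and that at chr7:20271938-20272186 24.0 points. The pairs at chr7:20299571-20299725 and chr7:20301039-20301542 form a run of 1.99 kb by themselves and differed in opposite directions.

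**Figure D4:**
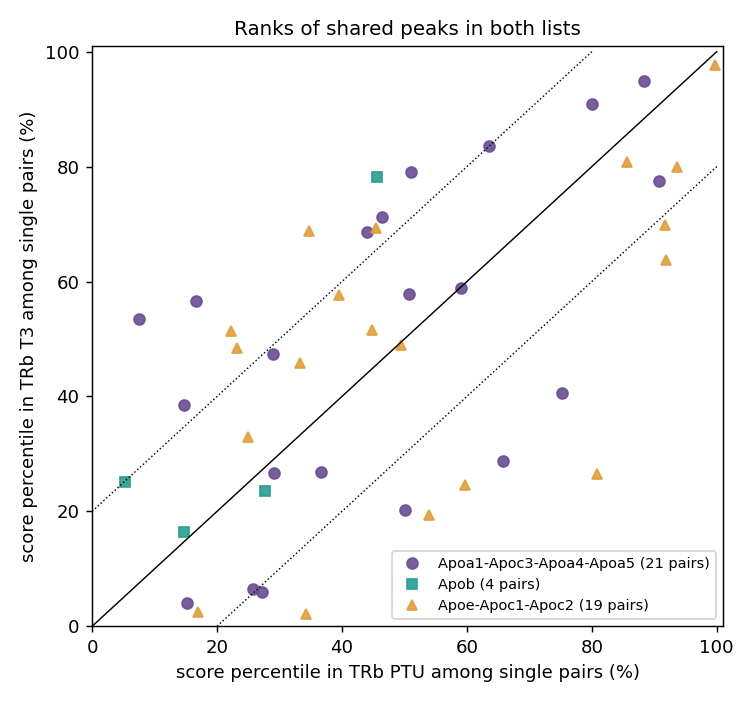
Score percentile of each single pair of the 3 loci in TRb PTU (x axis, %) and TRb T3 (y axis, %), ranked among the 27010 single pairs of the series; the solid line marks equal rank and the dotted lines a difference of 20 points. The Apoa1 cluster has 6 pairs above the upper and 4 below the lower dotted line, the Apoe cluster 4 and 6, and Apob 1 and 0.

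Apob, the structural gene of the particles that carry cholesterol from the liver, had its highest-scored TRb T3 peak at chr12:7991224-7991566 (score 70.27). Its TRb PTU partner chr12:7991260-7991478 scored 28.33, and the pair went from percentile 45.6 in TRb PTU to 78.2 in TRb T3, a difference of 32.6 points. The other 3 pairs were chr12:7956985-7957145, chr12:7957239-7957413 and chr12:8027881-8028042. They ranked 19.8 and 1.65 points higher in TRb T3 and 4.01 points higher in TRb PTU. In all, 3 of 4 pairs ranked higher in TRb T3 (75%, interval 19.4 to 99.4%), too few to set apart from the 48.9% of the series.

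The highest TRb PTU peaks around Apob had no TRb T3 partner. They were the neighbours chr12:8044959-8045157 and chr12:8045258-8045507, each with a score of 34.83, and lay 8761 and 8411 bp from the nearest TRb T3 edge. The third PTU-only peak by score was chr12:7984335-7984480 (12.24). The T3-only peaks were chr12:7985310-7985517 (36.20), chr12:8053919-8054085 (20.99) and chr12:7974236-7974375 (11.11). The T3-only peak with the score of 36.20 began 829 bp beyond the edge of the PTU-only peak with 12.24, so the conditions were called at neighbouring and not at the same positions there.

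The peaks of a pair overlap by definition, which limits how far apart their midpoints can lie. At all 3 loci the distances were near that of the series. The median distance between midpoints of a pair was 25 bp at the Apoa1 cluster, 15.2 bp at Apob and 16.5 bp at the Apoe cluster, against 18.5 bp over the series, and the farthest were 166, 26.0 and 89.0 bp. Of the 44 pairs, the TRb PTU peak was the wider one in 29 (65.9%) and the TRb T3 peak in 14 (31.8%). Over all pairs of the series the shares were 59.7 and 39.6%, so the loci leaned the same way as the lists. In all 10 pairs that ranked at least 20 points higher in TRb PTU the TRb PTU peak was the wider one, as in 94.2% of such pairs in the series. Of the 11 pairs that ranked at least 20 points higher in TRb T3, the TRb T3 peak was wider in 6 and the TRb PTU peak in 5, where 84.8% of such pairs in the series had the wider peak in TRb T3. Width and score come from the same reads and are not separate measurements of binding.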

How the data were processed

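Binding of biotinylated TRβ1 was measured by ChIP-seq in 3 samples, 1 library each, grouped by title; the 3 input samples were not analysed here. The deposited files are peak lists (BED), 1 per ChIP sample. Their score is the authors' peak caller's value, a statistic the files leave undefined. Bowtie, SAMtools, MACS2 and mm9 are named in the submitters' processing notes; for versions, settings, the control library and filters, the sources used here give nothing. Without read counts in the lists, depth is unknown. Peaks were assigned to loci by midpoint and compared by overlap of at least 1 bp, with Clopper-Pearson 95% intervals. Same-length windows ran from the start of each chromosome to its last peak. Positions are 1-based. The peaks named are, per locus, the 3 highest-scored of each list, the 3 highest-scored of each single-list class, and single pairs that differ by at least 20 percentile points; others were chosen after their values were seen. The loci and rules were chosen with earlier results of these data known. Peak positions relative to genes, the search for receptor motifs in peaks and the other lipoprotein genes were planned with an mm9 annotation and not run; the motif search in RefSeq start regions was added later. The overlap and ranking code was tested on simulated data. Python 3.11.15, numpy 2.4.6, pandas 2.3.3, scipy 1.17.1 and matplotlib 3.10.9 were used.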

Additional observations from a re-analysis of the deposited data

How the results depend on the processing

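No paired analysis was possible because there was a single library for each condition. The alternatives were midpoints within 200 bp, at least 50% of the narrower peak overlapped, a filter at the median score of each list, equal numbers of peaks, windows widened by 10 kb on each side, and removal of peaks at GFP sites; those for pair ranks were added after seeing the data. No GFP peak lay in a window, so removing peaks at GFP sites could not test the counts. Under the other 5 alternatives, 74 of 90 values for 18 counts stayed within 1.5 times. The median filter removes peaks and the partners of others, and raised the single-list shares of both lists at each locus. At the Apoa1 cluster they rose from 16.7 to 27.8% (PTU-only) and from 20.6 to 27.8% (T3-only). Those of the Apoe cluster rose from 34.5 to 42.1% and from 13.6 to 21.4%. Around Apob they rose from 55.6 to 66.7% and from 42.9 to 50%. The whole-list shares went from 46.1 to 46.9% and from 38.7 to 39.9%. At the Apoa1 cluster the filter left 13 shared TRb PTU peaks (25 before), 13 shared TRb T3 peaks (27) and 4 pairs higher in TRb PTU (10). At the Apoe cluster it left 11 shared TRb PTU and 11 shared TRb T3 peaks (19 and 19), 5 pairs higher in TRb T3 (8) and 6 higher in TRb PTU (11). At Apob it left 1 shared peak in each list (4 and 4), 2 PTU-only peaks (5), 1 T3-only peak (3), 1 pair higher in TRb T3 (3) and 0 higher in TRb PTU (1). With equal numbers, PTU-only peaks fell to 3 at the Apoa1 cluster and 3 at Apob (5 and 5), since the weakest TRb PTU peaks are dropped. Wider windows gave 5 pairs higher in TRb T3 at Apob (3). Unknown depth limits each comparison of peak numbers between lists.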

Other observations

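When peaks of both lists that touch were merged, the Apoa1 cluster had 36 separate sites, of which 24 were in both lists, 5 in TRb PTU alone and 7 in TRb T3 alone. The Apoe cluster had 32 sites, with 19 in both, 10 in TRb PTU alone and 3 in TRb T3 alone. Apob had 12 sites, with 4 in both, 5 in TRb PTU alone and 3 in TRb T3 alone.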
